A study of Homo sapiens with 16 samples.

Results

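The 10 genes of the E2F and retinoblastoma families described here were followed in 4 human lung cancer cell lines treated with 2 inhibitors given together. They are E2F1, E2F2, E2F3, E2F4, E2F6, E2F7, E2F8, RB1, RBL1 and RBL2, taken by symbol from 28951 genes through their Ensembl IDs in GENCODE 29, and all 10 had enough reads to be tested. H460, H1703, HCC827 and H441 are established lines of non-small cell lung cancer, of which the series names the first pair responsive and the second pair non-responsive. Each line received vehicle (DMSO) or a combination of the MYC inhibitor MYCi975 at 5 µM with TMP195, which inhibits class IIa histone deacetylases, at 25 µM, for 48 hours. Total RNA was sequenced from 2 libraries per line and treatment, which gives 8 groups and 16 libraries. The single agents were not analysed here, so the shares of the 2 inhibitors in any change cannot be told apart. Each class is 2 lines, and class and line identity cannot be told apart either. Whether the paired libraries of a group stem from separate cultures is not stated, so p-values measure the spread between these libraries, which may be technical.

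E2F factors bind DNA, mostly as dimers with a DP protein, in front of genes for DNA replication and cell cycle entry. E2F1, E2F2 and E2F3 are classed as activators that the retinoblastoma protein RB1 holds in check until cyclin-dependent kinases phosphorylate it. E2F4 works mainly with the related pocket proteins p107 (RBL1) and p130 (RBL2) in repressor complexes of resting cells, E2F6 represses without a pocket protein, and E2F7 and E2F8 are atypical repressors that need no DP partner. Several of these genes are themselves known E2F targets.

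Between 8493271 and 13604150 reads fell on the listed genes in a library, and the libraries of a group correlated at 0.976 to 0.985 across genes, which are not independent replicates. The fewest reads for any of the 10 genes in any library were 15, for E2F2. MALAT1, a nuclear non-coding RNA, took 0.160 to 0.923% of reads in the vehicle libraries and 0.773 to 2.30% in the combination libraries, with H460 going from 0.160 and 0.192% to 1.35 and 1.21% and H1703 from 0.499 and 0.449% to 2.30 and 1.89%. Mitochondrial genes took 15.7 and 14.3% of reads in H460 vehicle and 18.2 and 17.4% with the combination, and in H1703 13.5 and 12.1% against 17.1 and 15.4%. In HCC827 they took 21.2 and 22.65% against 18.7 and 17.2%, lower with the combination, and in H441 17.3 and 17.75% against 17.9 and 18.1%. The part of either share in the results was not tested. Of 5 epithelial markers, KRT8, KRT18 and KRT19 were high and EPCAM and CDH1 at or near 0 in H460, while all 5 together reached only 257 to 261 normalised reads in H1703 vehicle, against 27730 to 73970 in the vehicle libraries of the other lines. The 4 markers of blood, vessel and connective tissue cells with values summed to at most 112 normalised reads in any library.

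Treatment lowered most of the family in the responsive lines and fewer of its genes in the non-responsive ones. In H460 limma called 7 of the 10 genes, all lower (E2F1, E2F2, E2F3, E2F4, E2F7, E2F8 and RBL1), while 26.7% of all 23968 tested genes were called there and 12.6% were lower. In H1703 the same genes except E2F4 fell, 6 of 10, against a background of 35.5% called and 17.6% lower. HCC827 had 3 falls (E2F2, E2F8 and RB1) with 9.92% of genes called and 5.5% lower, and H441 had 1 (RBL1) with 4.63% called and 1.86% lower. No gene of the family rose in any line. The libraries of the treatments did not overlap for 8 of the 10 genes in H1703, where 67.3% of all tested genes stood apart, for 8 in H460 (56.9%), 8 in HCC827 (50.1%) and 7 in H441 (44.9%). On the log2 scale the median change of the family was -0.76 for H460 and -0.82 for H1703, against -0.19 for HCC827 and -0.14 for H441, beside medians over all tested genes of 0.05, 0.08, 0 and 0.

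A change is the combination value minus the vehicle value of the deposited log2 data, given with the standard error of the fit. A call is an adjusted p under 0.05. In bulk RNA, fewer cells that express a gene and less RNA per cell cannot be told apart. Centring each library on its median shifted all changes by -0.19 in H460 and -0.24 in H1703, against -0.03 in HCC827 and 0.01 in H441. After centring, 8, 8, 3 and 0 of the 10 genes were called in that order of lines. The added calls, RB1 in H460 and E2F4 and E2F6 in H1703, came with this shift of all genes. Among all genes called in H460, 52.7% were higher as deposited and 32.6% after centring, and in H1703 50.4 and 31.1%.

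**Figure D1:**
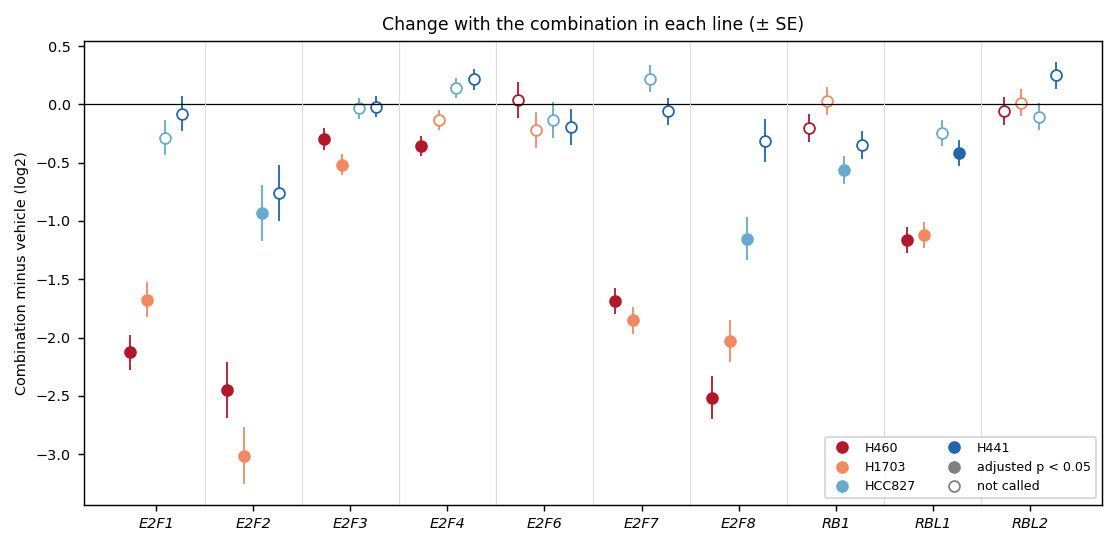
Change of each gene with the combination in each line (log2, combination minus vehicle, bars are the standard error of the limma fit), with filled points for calls. E2F1, E2F2, E2F7, E2F8 and RBL1 lie at or below -1.12 in both responsive lines, H460 and H1703, whereas the lowest value in H441 is that of E2F2 at -0.76.

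Promoters were read from RefSeq (GRCh38.p14), which held 11 windows for 9 of the 10 genes. The letters searched on both strands of the 250 bases before each start were TTTCCCGC, TTTCGCGC, TTTGCCGC and TTTGGCGC, a common form of the E2F site. They occurred in 4 of the 11 windows, those of E2F1, E2F2, E2F3 and RBL1, and in 2.79% of all 35116 promoters in the table. These 4 genes, shown because they carry the letters and all fell in both responsive lines, have the following 80 bases before the RefSeq start, on the gene's strand, with the matches in capitals.
E2F1, chr20:33686386-33686465, minus strand: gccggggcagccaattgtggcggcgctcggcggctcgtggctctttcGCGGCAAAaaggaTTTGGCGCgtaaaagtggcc
E2F2, chr1:23531234-23531313, minus strand: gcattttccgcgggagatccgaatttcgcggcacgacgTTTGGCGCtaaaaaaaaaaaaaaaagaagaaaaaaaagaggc
E2F3, chr6:20401799-20401878, plus strand: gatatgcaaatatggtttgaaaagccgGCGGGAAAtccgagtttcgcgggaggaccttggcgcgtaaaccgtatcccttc
RBL1, chr20:37095998-37096077, minus strand: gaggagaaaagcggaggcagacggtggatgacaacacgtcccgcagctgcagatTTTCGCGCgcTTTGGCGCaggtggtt

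E2F1 and RBL1 each hold a pair of matches, whose first bases lie 33 and 20 bases before the start in E2F1 and 26 and 16 bases before it in RBL1. The match of E2F2 lies 42 bases before the start and that of E2F3 53 bases before it. No match overlapped another. The cell cycle element CHR (TTTGAA or TTCGAA) was found in 1 of the 11 windows, that of E2F3 65 bases before the start, and in 14.3% of all promoters. The E-box CACGTG, the sequence that MYC dimers bind, was found in 1 window, a second start of E2F3, and in 6.34% of all promoters. E2F7, which also fell in both responsive lines, had none of these letters in its window. E2F8, which fell in both as well, is the gene without a window and was not searched. The RB1 window belongs to a start 172724 bases inside the gene and the RBL2 windows to starts 494 and 1642 bases inside theirs, so the GENCODE gene starts of these genes were not searched. By gene, 4 of 9 family members (44.4%), 11 of 26 listed E2F target genes (42.3%) and 928 of 27305 genes in all (3.4%) held an E2F site. A match of letters shows no binding.

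E2F1 (ENSG00000101412, chromosome 20, 33675683 to 33686404) encodes the founding activator of the family. In H460 its normalised reads were 326 and 325 with vehicle and 86.7 and 60.4 with the combination, and in H1703 528 and 523 against 148 and 178. HCC827 had 237.5 and 219 against 199 and 175, and H441 had 695 and 572 against 629.6 and 566. Every combination library lay below every vehicle library in H460, H1703 and HCC827, with a narrow gap in HCC827, and the groups overlapped in H441. E2F1 fell 4.42-fold in H460 (-2.13 ± 0.15, adjusted p = 1.63e-09) and 3.22-fold in H1703 (-1.68 ± 0.15, adjusted p = 2.87e-08). Its change was -0.285 ± 0.15 in HCC827 (adjusted p = 0.287) and -0.08 ± 0.15 in H441 (adjusted p = 0.888).

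E2F2 (ENSG00000007968, chromosome 1, 23506430 to 23531220), an activator that resembles E2F1, gave the lowest change of the family in any line. Its normalised reads were 231 and 232 with vehicle and 46.9 and 34.2 with the combination in H460, and 351 and 368.5 against 40.3 and 44.1 in H1703. They were 39.99 and 42.5 against 29.4 and 13.8 in HCC827 and 209 and 238 against 143 and 119 in H441. The groups stood apart in all 4 lines, and HCC827 had few reads in either group. E2F2 fell 8.52-fold in H1703 (-3.01 ± 0.24, adjusted p = 5.35e-09), 5.71-fold in H460 (-2.45 ± 0.24, adjusted p = 1.36e-07) and 1.91-fold in HCC827 (-0.93 ± 0.24, adjusted p = 0.0161). In H441 the change was -0.76 ± 0.24 (adjusted p = 0.0798). The HCC827 call held in 17 of 23 alternatives. It was lost without HCC827 combination library 2, which had the lowest value (-0.45, adjusted p = 0.307), without either HCC827 vehicle library (0.0763 and 0.0987), with limma voom (0.0593), in a fit of the HCC827 libraries by themselves (0.21) and without the trend and robust settings (0.0817). The H441 change was called with limma voom on recovered reads (-0.78, adjusted p = 0.00276).

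E2F3 (ENSG00000112242, chromosome 6, 20401906 to 20493715), which gives rise to a longer and a shorter protein from separate starts, moved less than its fellow activators. H460 had 1074 and 1093 normalised reads with vehicle and 852 and 914.5 with the combination, and H1703 had 1381 and 1324 against 871 and 1025. HCC827 had 637 and 593 against 582 and 619.7, and H441 928 and 896 against 850.2 and 952. The groups stood apart in the responsive lines and overlapped in the others. E2F3 fell 1.43-fold in H1703 (-0.52 ± 0.09, adjusted p = 0.000159) and 1.23-fold in H460 (-0.295 ± 0.09, adjusted p = 0.0215). The H460 call was lost in 6 of 23 alternatives, with the highest adjusted p, 0.121, in the fit without H460 combination library 1. The changes in HCC827 (-0.03, 95% interval -0.23 to 0.16) and H441 (-0.02, -0.21 to 0.17) were not called.

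**Figure D2:**
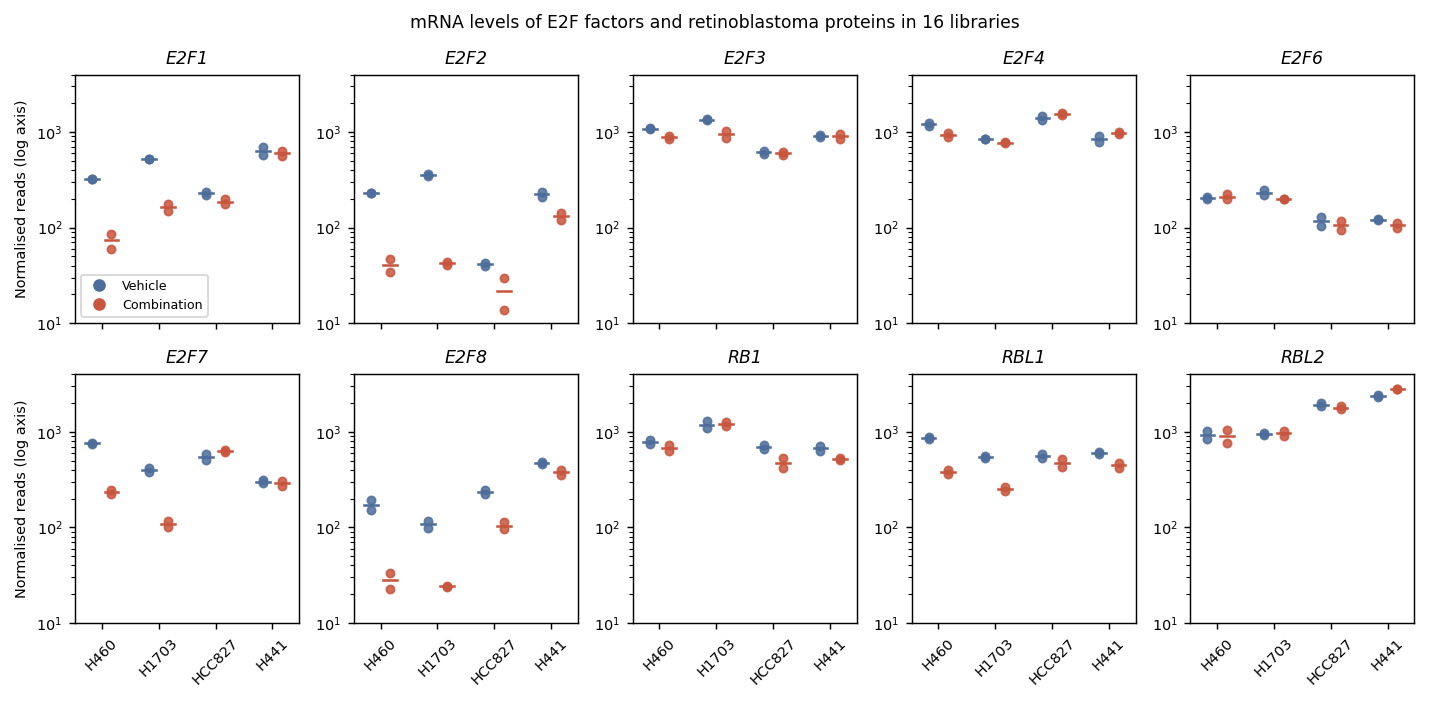
Normalised reads of the 10 genes (log axis) in every library, by line, with vehicle in blue, combination in red and a bar at the mean of the 2 libraries. E2F1, E2F2, E2F7, E2F8 and RBL1 separate by treatment in H460 and H1703. E2F6 and RBL2 were called in no line, although some of their groups stand apart, as those of RBL2 do in H441.

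Because the activators moved by different amounts, their make-up shifted. Per kilobase of exon, E2F3 supplied 54.9% of the summed activator reads in H460 vehicle and 82.3% with the combination, and in H1703 48.7 and 71.6%. E2F1 went from 34.0 to 14.1% in H460 and from 39.0 to 25.4% in H1703. In HCC827 the E2F3 share was 54.7 and 59.7% and in H441 37.6 and 39.9%. As vehicle and combination, the sum of the 3 activators per kilobase was 538 and 257 normalised reads in H1703, 382 and 208 in H460, 470 and 437 in H441, and 218 and 195 in HCC827.

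E2F4 (ENSG00000205250, chromosome 16, 67192169 to 67198918), the main E2F of the repressor complexes, had the largest share among the E2F genes followed here, by reads per kilobase, in H460 and HCC827 vehicle. Its normalised reads were 1256 and 1153 with vehicle and 988 and 893 with the combination in H460, and 855 and 850.5 against 769.9 and 782.5 in H1703. In HCC827 they were 1464 and 1343 against 1573 and 1524, and in H441 906 and 796 against 1012 and 959. The libraries with the combination were the lower ones in both responsive lines and the higher ones in both non-responsive lines, with no overlap in any line. E2F4 fell 1.28-fold in H460 (-0.36 ± 0.09, adjusted p = 0.00381), a call lost with only the H460 libraries (adjusted p = 0.0763) and without H460 vehicle library 1 (adjusted p = 0.0594). The other changes were -0.135 ± 0.09 in H1703 (adjusted p = 0.254), 0.14 ± 0.09 in HCC827 (0.369) and 0.21 ± 0.09 in H441 (0.191). Centring on the median gave -0.38 in H1703 (adjusted p = 0.00458) and quantile normalisation 0.03 (adjusted p = 0.882), so that the sign in H1703 turned with the scaling. As other E2F genes fell, the E2F4 share of the summed E2F reads per kilobase was 36.1% in vehicle and 46.3% with the combination in H460. In H1703 it was 25.8 and 39.8%. The sum covers only the E2F genes followed here, and E2F5 is not among them.

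E2F6 (ENSG00000169016, chromosome 2, 11444375 to 11466177), the E2F of a Polycomb repressor complex, passed the test in no line. In H460 its change was 0.03 ± 0.15 (95% interval -0.29 to 0.36) and in H1703 -0.22 (-0.54 to 0.105), and the non-responsive lines gave -0.135 (HCC827, -0.46 to 0.19) and -0.20 (H441, -0.52 to 0.13). Normalised reads ran from 197 to 245 over the 8 libraries of the responsive lines and from 94.1 to 128.5 over those of the non-responsive lines. The line classes thus did not overlap for E2F6 whatever the treatment. Median centring called E2F6 lower in H1703 (-0.46, adjusted p = 0.0327).

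E2F7 (ENSG00000165891, chromosome 12, 77021247 to 77065580) encodes an atypical repressor of cell cycle genes that acts late in S phase. Its normalised reads were 764 and 751 with vehicle and 221 and 246 with the combination in H460, and 419.8 and 382 against 118 and 101 in H1703. In HCC827 they were 503 and 580.3 against 618 and 643, and in H441 292 and 310.3 against 274 and 303. The groups stood apart in H460 and H1703 with the combination lower and in HCC827 with the combination higher, and overlapped in H441. E2F7 fell 3.67-fold in H1703 (-1.85 ± 0.115, adjusted p = 1.63e-10) and 3.24-fold in H460 (-1.69 ± 0.115, adjusted p = 9.26e-10). The changes of 0.22 ± 0.115 in HCC827 (adjusted p = 0.276) and -0.06 ± 0.115 in H441 (adjusted p = 0.886) were not called.

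E2F8 (ENSG00000129173, chromosome 11, 19224063 to 19241620), which acts together with E2F7, went from 194 and 152 normalised reads to 33.7 and 22.8 in H460 and from 99.3 and 116 to 23.96 and 24.4 in H1703. In HCC827 it went from 248 and 222 to 113 and 95.9, and in H441 from 478 and 458 to 403 and 352. No groups overlapped in any line, and the H441 levels with the combination were above those of every other line. E2F8 fell 6.12-fold in H460 (-2.52 ± 0.18, adjusted p = 2.32e-09), 4.44-fold in H1703 (-2.03 ± 0.18, adjusted p = 2.98e-08) and 2.25-fold in HCC827 (-1.15 ± 0.18, adjusted p = 0.00034). In H441 its change was -0.31 ± 0.18 (adjusted p = 0.425). E2F8 was the only gene of the family whose HCC827 fall held in all 23 alternatives. In HCC827 the atypical E2Fs thus parted: E2F7 supplied 60.1% of their summed reads per kilobase in vehicle and 79.9% with the combination, beside 29.7 and 33.5% in H441.

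RBL1 (ENSG00000080839, chromosome 20, 36996349 to 37095995) encodes p107, the pocket protein of cycling cells and a known E2F target. H460 had 882 and 835 normalised reads with vehicle and 399.7 and 366 with the combination, and H1703 had 535 and 560.5 against 262.5 and 239.6. HCC827 had 586.5 and 533 against 525 and 424, and H441 had 614 and 583 against 474.5 and 422. The combination was lower without overlap in all 4 lines, by the least in HCC827. RBL1 fell 2.24-fold in H460 (-1.16 ± 0.11, adjusted p = 9.75e-08), 2.18-fold in H1703 (-1.12 ± 0.11, adjusted p = 1.10e-07) and 1.33-fold in H441 (-0.42 ± 0.11, adjusted p = 0.0362), and its HCC827 change was -0.24 ± 0.11 (adjusted p = 0.198). The H441 call held in 14 of 23 alternatives and had adjusted p = 0.254 without H441 combination library 2.

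RB1 (ENSG00000139687, chromosome 13, 48303726 to 48599436), the retinoblastoma tumour suppressor, had RNA in all 16 libraries, from 415 to 1295 normalised reads. In HCC827 its normalised reads were 733 and 655 with vehicle and 529 and 415 with the combination, and in H441 702 and 637 against 513 and 538. In H460 they were 751 and 819 against 633 and 732, and in H1703 1087 and 1295 against 1158 and 1267. The groups stood apart in HCC827, H441 and H460, with the combination lower, and overlapped in H1703. RB1 fell 1.47-fold in HCC827 (-0.56 ± 0.12, adjusted p = 0.00399), and its changes were -0.35 ± 0.12 in H441 (adjusted p = 0.108), -0.20 ± 0.12 in H460 (0.238) and 0.03 ± 0.12 in H1703 (0.906). The HCC827 call was lost in 4 of 23 alternatives, with the highest adjusted p in the fit without HCC827 combination library 2 (0.115).

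RBL2 (ENSG00000103479, chromosome 16, 53433977 to 53491649), which encodes p130, the pocket protein of resting cells, passed the test in no line. Its change was -0.06 ± 0.12 in H460 and 0.02 in H1703, while HCC827 gave -0.11 and H441 gave 0.25 (adjusted p = 0.282). Only in H441 did its libraries stand apart with the combination higher, at 2402 and 2325 against 2780 and 2833 normalised reads. RBL2 exons share 610 bases with the antisense gene AKTIP and 721 with AC007342.6, and since the sources used here give no strand setting for the counting, reads of these genes cannot be told apart with certainty. Among the pocket proteins per kilobase, the RBL1 share was 36.7% in H460 vehicle and 22.1% with the combination, and in H1703 22.6 and 11.7%. In HCC827 it lay between 18.3 and 21.7% in all 4 libraries, and in H441 it was 19.1 and 13.9%. RBL2 supplied 61.3% in H441 vehicle and 71.0% with the combination, the largest share of one pocket protein in any group.

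**Figure D3:**
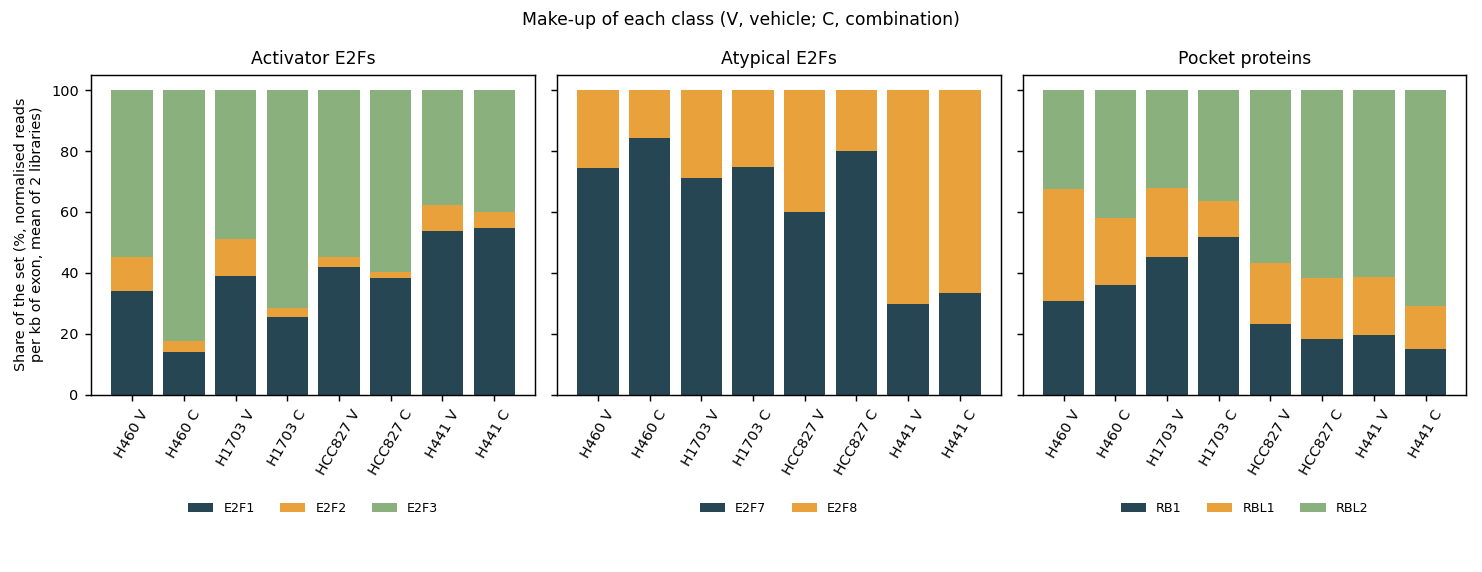
Share of each gene in the summed normalised reads per kilobase of exon of its class (stacked to 100%, means of 2 libraries), for vehicle (V) and combination (C) in each line. E2F3 takes 82.3% of the activators in H460 and 71.6% in H1703 with the combination, and E2F7 goes from 60.1 to 79.9% of the atypical E2Fs in HCC827.

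The response differed between the line classes for most of the family. Over the responsive lines 7 of 10 genes fell, with 38.5% of all genes called and 17.9% lower, and over the non-responsive lines 4 fell (E2F2, E2F8, RB1 and RBL1), with 12.3% called and 6.05% lower. The difference of responses itself was called for 8 genes, 7 lower and 1 higher in the responsive lines, against 23.3% of all genes (12.1% lower and 11.2% higher). Median centring took the higher share among called genes from 53.6 to 32.2% over the responsive lines and from 48.0 to 23.9% in the difference of responses. As deposited, without centring, the difference of responses was -1.885 ± 0.24 for E2F2 (adjusted p = 7.24e-06), -1.85 ± 0.115 for E2F7 (8.01e-10), -1.72 ± 0.15 for E2F1 (6.69e-08), -1.54 ± 0.18 for E2F8 (3.18e-06) and -0.81 ± 0.11 for RBL1 (1.67e-05). E2F4 differed by -0.42 ± 0.09 (adjusted p = 0.00109) and E2F3 by -0.38 ± 0.09 (0.00463). The combined changes behind them were -1.90 and -0.18 for E2F1, -0.41 and -0.03 for E2F3, and -0.25 and 0.18 for E2F4, as responsive and non-responsive. The E2F4 fall over the responsive lines was lost with quantile normalisation (-0.14, adjusted p = 0.101).

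RB1 went the other way, with a change of -0.09 ± 0.08 over the responsive lines, a fall over the non-responsive ones (-0.45 ± 0.08, adjusted p = 0.00104) and a difference of 0.37 ± 0.12 (adjusted p = 0.0297). That difference was lost in 10 of 22 alternatives, among them median centring (0.16, adjusted p = 0.439) and the fits without H1703 vehicle library 1 (0.30, adjusted p = 0.0960) or HCC827 combination library 2 (0.28, adjusted p = 0.0912). The differences for E2F6 (0.07, 95% interval -0.25 to 0.396) and RBL2 (-0.09, -0.34 to 0.15) were not called. After median centring all 10 genes were called lower over the responsive lines, with E2F6 at -0.31, RB1 at -0.305 and RBL2 at -0.24. Centring shifted the changes of all genes over the responsive lines by -0.22. As deposited, E2F6, RB1 and RBL2 were not called there, so their calls came with this shift.

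Within a class no gene of the family differed in its response by the test. Between H460 and H1703 limma called 0 of 10 (1 at an unadjusted p under 0.05, E2F1), with 19.1% of all genes called. The H460 minus H1703 differences were -0.45 ± 0.21 for E2F1 (adjusted p = 0.163), -0.485 ± 0.26 for E2F8 (0.224) and 0.56 ± 0.34 for E2F2 (0.296). Between HCC827 and H441 limma also called 0 of 10 (2 at an unadjusted p under 0.05, E2F8 and RBL2), with 2.01% of all genes called. The E2F8 difference there was -0.84 ± 0.26 (adjusted p = 0.107), called with limma voom (-0.86, adjusted p = 0.0220) and with only the libraries compared (adjusted p = 0.0326).

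Before treatment the lines already differed in these genes. In vehicle 8 of 10 genes differed between the line classes, while 56.3% of all genes did (28.8% higher and 27.6% lower in the responsive lines). E2F2 (1.55 ± 0.17), E2F6 (0.87 ± 0.11), E2F3 (0.69 ± 0.065), RB1 (0.50 ± 0.08), E2F7 (0.45 ± 0.08) and RBL1 (0.24 ± 0.08) were higher in the responsive lines, and E2F8 (-1.27 ± 0.13) and RBL2 (-1.18 ± 0.08) were lower. The differences for E2F1 (0.12, adjusted p = 0.347) and E2F4 (-0.11, adjusted p = 0.149) were not called. Between pairs of lines, 8 of 10 genes differed for H460 and H1703 (46.4% of all genes), 9 for H460 and HCC827 (50.3%), 8 for H460 and H441 (54.2%), 9 for H1703 and HCC827 (50.7%), 7 for H1703 and H441 (52.1%) and 7 for HCC827 and H441 (44.7%).

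By line, E2F1 RNA was highest in H441, then H1703, H460 and HCC827, with 2.78-fold between the ends and H441 and H1703 not distinguishable (adjusted p = 0.161). E2F2 had the widest span, 8.72-fold, from H1703 over H460 and H441, which did not differ beyond their spread (adjusted p = 0.879), to HCC827. E2F3 ran from H1703 over H460 and H441 to HCC827 (2.20-fold) with each step called. E2F4 was highest in HCC827, followed by H460 and by H1703 and H441, which were alike within error (0.006 ± 0.09), over 1.65-fold. E2F7 ran from H460 over HCC827 and H1703 to H441 (2.52-fold), and E2F8 from H441 over HCC827 and H460 to H1703 (4.35-fold), with every step called. E2F6 was higher in H1703 and H460 than in H441 and HCC827 (2.00-fold between the ends), and neither of those pairs differed by the test. RB1 was higher in H1703 than in H460 (adjusted p = 0.000298), and the steps from H460 over HCC827 to H441 were not called (1.78-fold between the ends). RBL1 was higher in H460 than in H441 (adjusted p = 0.000487), and the steps from H441 over HCC827 to H1703 were not called (1.57-fold between the ends). RBL2 ran from H441 over HCC827 to H1703 and H460 (2.53-fold), the last pair not distinguishable (adjusted p = 0.855). Some called steps were close to the threshold. The step between HCC827 and H460 held in 6 of 23 alternatives for E2F8 (adjusted p = 0.0494) and in 16 for E2F4 (0.0415), that between H441 and HCC827 in 10 for RBL2 (0.0453), that between H460 and H441 in 17 for E2F3 (0.0285), and that between H1703 and H460 in 18 for E2F2 (0.038).

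The DP partners moved unequally. TFDP1, which encodes the main dimer partner DP1, fell in H1703 (-2.15 ± 0.10), H460 (-0.89 ± 0.10) and H441 (-0.43 ± 0.10, adjusted p = 0.0147), and its change in HCC827 was -0.31 and not called. Its mean normalised reads were 840 and 188 in H1703, 956 and 515 in H460, and 1011 and 749.6 in H441, as vehicle and combination. The H441 call was lost when any of the 4 H441 libraries was left out. TFDP2 rose by 0.52 ± 0.10 in H1703 (adjusted p = 0.000381) and passed the test in no other line.

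Of 13 genes for the kinases that phosphorylate RB1, their cyclins and their inhibitors, 6 fell and 4 rose over the responsive lines, and 2 fell and 3 rose over the non-responsive ones. Of all tested genes, 38.5% were called over the responsive lines (17.9% lower) and 12.3% over the non-responsive lines (6.05% lower). CDKN2C, which encodes the CDK4 and CDK6 inhibitor p18, fell in H1703 (-4.87 ± 0.23), from 224 to 5.57 normalised reads, in H460 (-2.20 ± 0.23) and in HCC827 (-1.65 ± 0.23), and its H441 change of -0.31 was not called. CCND3, which encodes cyclin D3, fell over the responsive lines (-1.61 ± 0.16). CDKN1A, which encodes the inhibitor p21, rose by 2.47 ± 0.20 in H460 (from 347 to 1850 normalised reads) and by 1.71 ± 0.20 in HCC827, and its change was 0.50 in H1703 and 0.39 in H441. CCND1, which encodes cyclin D1, rose by 0.97 ± 0.08 in H460, from 2612 to 5121 normalised reads, and by less in H441 (0.37 ± 0.08, lost in 6 of 23 alternatives) and H1703 (0.23 ± 0.08, lost in 5 of 23, with median centring at -0.009).

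CCND2, which encodes cyclin D2, had 0 reads in both H460 vehicle libraries and 68 in the combination libraries, which is at least 28.0-fold higher when the vehicle group is set to a floor of 3 reads in all. In H1703 its mean was 12300 and 6323 normalised reads, and that change of -0.97 was called in 5 of 23 alternatives but not in the fit used here. CDKN1B, which encodes p27, rose in H460 (0.65 ± 0.13), a call lost with only the H460 libraries (adjusted p = 0.0675). It fell in HCC827 (-0.53 ± 0.13). That fall was lost without HCC827 vehicle library 1 or combination library 2, and with neither trend nor robust settings (adjusted p = 0.0661). CDKN2A and CDKN2B, named after their values were seen, had 0 reads in all 4 H460 libraries.

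Among 8 genes of the MuvB core and the factors it works with, 5 fell in each responsive line. HCC827 had 4 falls and H441 had 1, and none of the 8 genes rose. By comparison, the share of all tested genes called lower was 12.6% for H460 and 17.6% for H1703. It was 5.5% for HCC827 and 1.86% for H441. MYBL2, which encodes B-MYB, fell over the responsive (-2.70 ± 0.06) and the non-responsive lines (-0.54 ± 0.06), as did the mitotic transcription factor gene FOXM1 (-2.30 ± 0.08 and -0.47 ± 0.08). LIN9, a core subunit, fell over the responsive lines (-1.09 ± 0.09), and LIN54, the DNA-binding subunit, over both (-0.66 ± 0.09 and -0.35 ± 0.09), the second call lost without H441 vehicle library 1 or HCC827 combination library 2. DYRK1A, named after its values were seen, the kinase that promotes assembly of the repressor form DREAM, ranged from -0.18 to 0.17 by line and was not called. The HCC827 count was 2 without HCC827 vehicle library 1 or HCC827 combination library 2.

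Of 9 genes for the complex around E2F6, 3 fell and 1 rose over the responsive lines, a share close to the 38.5% of all genes called there. CBX3 (-0.915 ± 0.07), WDR5 (-0.70 ± 0.075) and L3MBTL2 (-0.67 ± 0.08) fell, and RNF2 rose (0.31 ± 0.08), a rise not called after median centring. RYBP rose in H1703 (0.465 ± 0.11), which median centring also lost, and fell in HCC827 (-0.42 ± 0.11, adjusted p = 0.0171), which was lost without either HCC827 vehicle library or HCC827 combination library 1. Genes of E2F turnover also fell: CCNF, which encodes cyclin F, changed by -1.895 ± 0.10 in the responsive class and -0.605 ± 0.10 in the other, and SKP2 by -1.75 ± 0.08 and -0.54 ± 0.08. Both encode substrate receptors of ubiquitin ligases. FZR1, the third gene of this list, fell in H1703 (-0.33 ± 0.12, adjusted p = 0.0409; lost in 8 of 23 alternatives) and was not called in the other lines.

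By the median, genes that E2F factors are known to drive fell the most in the responsive lines, less in HCC827 and the least in H441. Of 28 replication and S phase targets, all 28 fell in H460 and in H1703, 25 fell in HCC827 and 4 in H441, with medians of -1.91, -1.73, -0.60 and -0.18. The shares of all tested genes that fell were 12.6, 17.6, 5.5 and 1.86% in the same order of lines. Over the responsive lines large falls were those of RRM2, for a ribonucleotide reductase subunit (-2.83 ± 0.06), and MCM10, a replication factor gene (-2.65 ± 0.075). Over the non-responsive lines 24 fell (6.05% of all genes did), among them GINS2 (-0.82) and ORC1 (-0.64), both with roles in DNA replication. Their summed normalised reads were 38780 and 39810 in H460 vehicle against 11620 and 12070 with the combination, and 38530 and 40890 against 34800 and 35300 in H441. The H441 count ranged from 0 with only the H441 libraries to 8 without either H460 combination library, so it is not well fixed.

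Late cell cycle genes, many of them bound by B-MYB, FOXM1 or DREAM, fell in 10 of 10 cases in each responsive line, in 9 in HCC827 and in 0 in H441 (1 in 5 of 23 alternatives, limma voom among them), with medians of -1.79, -1.78, -0.85 and -0.12. Over the responsive lines BIRC5, for survivin (-2.45 ± 0.08), MKI67, for the proliferation antigen Ki-67 (-2.02 ± 0.09), and CCNB1, for cyclin B1 (-1.86 ± 0.08), fell the most. Over the non-responsive lines 7 of the 10 fell (6.05% of all genes did), led by MKI67 (-0.71), PLK1, for a mitotic kinase (-0.64), and BIRC5 (-0.60). In HCC827, where 25 of 28 and 9 of 10 targets fell, E2F1, E2F3 and E2F7 were not called and E2F2 and E2F8 were. With only the HCC827 libraries, and with neither trend nor robust settings, these counts were 18 and 7. The E2F2 call was lost in both settings. The responses of the line classes differed for all 28 and all 10 targets, beside 23.3% of all genes. Targets also differed within a class. In HCC827 minus H441, 6 of 28 and 6 of 10 were called lower, with 2.01% of all genes called. In H460 minus H1703, 11 of 28 were called higher and 6 lower, and 2 of 10 higher and 1 lower, with 19.1% of all genes called. These lists were measured in the same libraries as the E2F genes, and the part of the E2F genes in their changes was not tested.

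**Figure D4:**
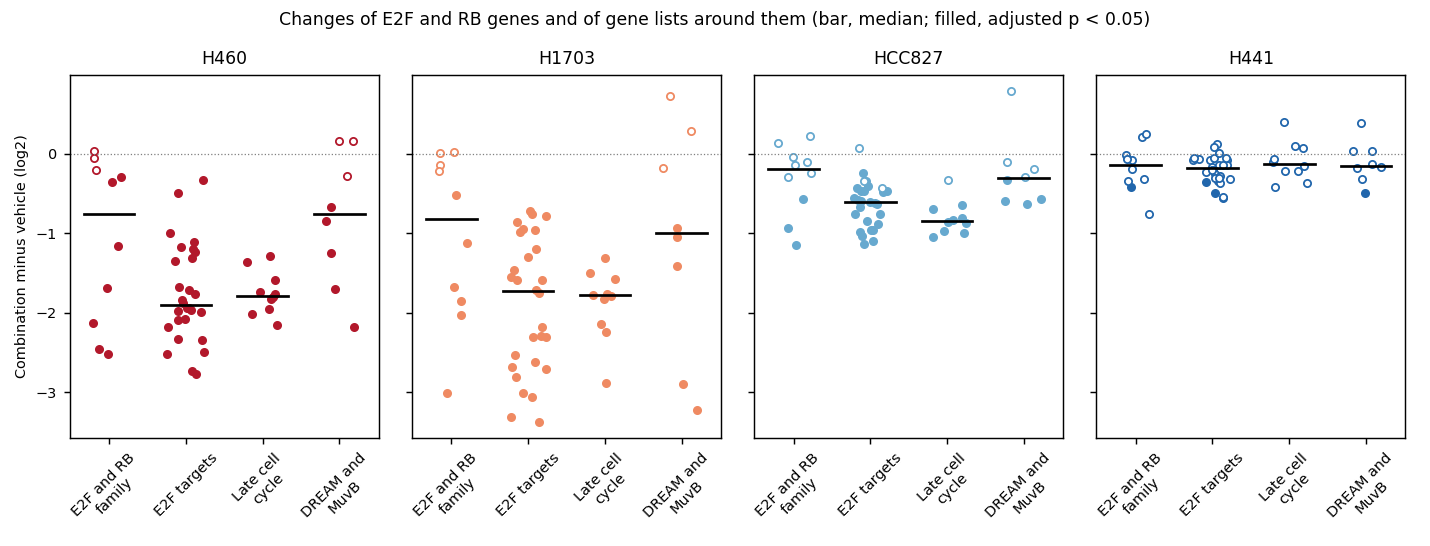
Change with the combination (log2) of the 10 E2F and RB genes, 28 E2F targets, 10 late cell cycle genes and 8 DREAM and MuvB genes in each line, 1 point per gene, bars at the medians and filled points for calls. The target medians go from -1.91 in H460 and -1.73 in H1703 to -0.60 in HCC827 and -0.18 in H441.

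Likeness was measured as Pearson's r over the 8 group means of the deposited values, as a description, since the groups share lines. E2F1 was most like NCAPH2 (0.992) and KIFC1 (0.988), E2F8 most like RMI2 (0.990) and CDCA8 (0.982), and E2F7 most like WDR5 (0.984) and UBAC1 (0.980). For E2F2 these were SMARCC2 and TEDC1 (0.976 each), for E2F3 CCT5 (0.982) and AP3B1 (0.981), and for RBL1 PTPMT1 (0.991) and the histone gene HIST1H2AB (0.990). For E2F4 the most similar genes were CISH (0.979) and AC092892.1 (0.975), for E2F6 AC008443.5 (0.994) and NRG2 (0.991), for RB1 AC090241.3 (0.994) and AC080013.3 (0.984), and for RBL2 CTAGE15 (0.998) and TNFRSF18 (0.996). All of these but CISH and NRG2 had at most 50 reads in any library. Within the family the highest r was that of E2F7 and RBL1 (0.860) and the lowest that of E2F6 and RBL2 (-0.943).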

How the data were processed

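RNA was measured in 16 libraries. Trimmomatic, STAR, featureCounts and hg38 (GRCh38) are named, with no versions, per the submitters' processing notes. The annotation release and the strand setting are not given in the sources used here. Variance-stabilised counts on a log2 scale were deposited by the authors, with 0.480538 for a count of 0. Inverting this scale returned whole reads (within 0.02) for 100% of values, and normalised reads are these reads divided by each library's size factor.

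Tests covered genes whose mean lay 1 or more above that lowest value, 23968 in all, with 4983 left out. All contrasts came from a single limma model of the 8 groups (limma 3.58.1, R 4.3.3, trend and robust settings), with Benjamini-Hochberg adjustment over all tested genes and a threshold of 0.05. Since the unit is log2, limma voom on recovered reads served as the count-based alternative. Other alternatives were median centring, quantile normalisation, no filter, neither trend nor robust settings, only the libraries compared, a replicate block, and leaving out each library.

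Members and gene lists were chosen with earlier results of these data known. All 10 genes are named, and from each list up to 3 called genes with the largest change over each class, plus those against the list's main direction; 1 gene that this rule names is not reported here. For likeness, the 2 genes with the highest r are named. Intervals are 95%, and reads cover counting error only. Promoters (300 bases, of which the 250 before the start were searched) came from RefSeq, GRCh38.p14, and gene positions from GENCODE 29. Tables and figures used pandas 2.3.3, numpy 2.4.6 and matplotlib 3.10.9 in Python 3.11.15.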

Additional observations from a re-analysis of the deposited data

Results flagged for a closer look

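The response to the combination differed between the line classes by a direct test, responsive minus non-responsive lines, for 8 of the 10 genes. Of all tested genes 23.3% differed, 12.1% lower and 11.2% higher. The difference was -1.885 for E2F2, -1.849 for E2F7, -1.72 for E2F1, -1.542 for E2F8, -0.809 for RBL1, -0.424 for E2F4 and -0.379 for E2F3 on the log2 scale. It was 0.367 for RB1, the gene with the opposite sign, and this was lost in 10 of 22 alternatives. With 2 lines per class, class and line cannot be told apart. No group was large enough to look for a library far from the others of its group.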

How the results depend on the processing

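Results were recomputed under 7 alternative settings and without each of the 16 libraries, except that the difference between the classes uses all libraries and so had no fit with only the libraries compared, and no called change of an E2F or RB gene turned its sign. Among the other named genes 1 did, CCND1 in H1703 (-0.009 after median centring). The falls of E2F1, E2F2, E2F7, E2F8 and RBL1 in H460 and H1703 and of E2F8 in HCC827 were called in all 23. With only the libraries compared, where fewer libraries fix the spread, 3626 genes were called in H460, 1299 in HCC827 with 1 of the 10 family genes, and 0 in H441 with 0 family genes, and 1 family gene (E2F8) differed in response between HCC827 and H441. With neither trend nor robust settings, 1183 genes and 1 family gene were called in HCC827, 364 and 0 in H441, 1674 genes over the non-responsive lines and 102 in the difference of HCC827 and H441. Median centring left 0 family genes in H441, and limma voom gave 2 there and 1 in the difference of HCC827 and H441. The cause of these moves was not tested.

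Leaving out 1 library at a time gave 1013 to 2740 genes and 1 to 3 family genes in HCC827, 499 to 1432 and 0 to 2 in H441, 1932 to 3371 genes over the non-responsive lines, 195 to 737 genes and 0 to 1 family genes in the difference of HCC827 and H441, 0 to 2 family genes in that of H460 and H1703, and 5 to 8 in the vehicle comparison of H460 and H1703. The HCC827 count was 1214 without vehicle library 1, 1403 without vehicle library 2 and 1013 without combination library 2, and the last also gave the 1932. The H441 count was 520 and 499 without vehicle libraries 1 and 2 and 575 and 516 without combination libraries 1 and 2, and its family call (RBL1) was lost in each of these and without either H1703 vehicle library, while leaving out either HCC827 combination library added E2F2. The difference of HCC827 and H441 fell to 195 without HCC827 vehicle library 1, 207 without HCC827 combination library 2 and 264 to 313 without each H441 library, and was 737 and 729 without H460 combination libraries 1 and 2, where E2F8 was called. E2F1 and E2F8 differed between H460 and H1703 without H460 combination library 1, and the 5 came without H1703 vehicle library 1.

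Median centring also moved the higher share among calls, from 53.6 to 32.2% over the responsive lines, from 48.0 to 23.9% in the difference of the classes, from 48.2 to 58.5% for H1703 against HCC827 vehicle and from 53.1 to 40.6% for HCC827 against H441 vehicle. Quantile normalisation moved it from 34.7 to 48.5% in the difference of HCC827 and H441.

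With the replicate number as a block, 8516 genes were called in H1703, 6422 in H460, 2434 in HCC827 and 1150 in H441, and 1 call in the family changed, E2F4 over the non-responsive lines (0.18, adjusted p = 0.0426). The deviations of same-numbered libraries within a line correlated across genes at 0.014 to 0.032, against -0.022 to 0.02 between lines. These values cover all tested genes, those with few reads included, so they cannot show whether same-numbered libraries were paired.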
